A study of Mus musculus with 2 samples.

Results

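Dual specificity MAPK phosphatases are enzymes of MAP kinase signalling, and most of them switch MAP kinases off. Nascent transcription of 10 of their genes was followed in macrophages before and after 1 hr of IL-4. The 10 genes (Dusp1, Dusp2, Dusp4, Dusp5, Dusp6, Dusp7, Dusp8, Dusp10, Dusp16 and Dusp22) were chosen by a rule on the symbol that uses no measured value, and their data were all called nascent transcripts that carried their names. Of these 10 genes, 8 were named by at least 1 transcript in each library, out of 8879 genes named in both and 11054 named in either, and Dusp8 and Dusp10 were named in neither.

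The cells were bone marrow-derived macrophages (BMDMs) from wild-type mice on the C57BL/6 background, aged 8 to 12 weeks, differentiated for 6 days with L929 supernatant, which supplies the growth factor M-CSF. Nascent RNA was captured by Global Run-On sequencing (GRO-seq), which labels only the RNA that engaged polymerases are extending in isolated nuclei, and keeps the strand. The control library came from BMDMs without IL-4 and the other from BMDMs given 20 ng/ml IL-4 for 1 hr, with genotype, age and growth medium shared by both. The run-on reactions were done in duplicate and pooled before sequencing, so each condition was 1 library (n = 1), no value below has a replicate, and no difference could be tested.

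The typical members remove the phosphates from both the threonine and the tyrosine in the activation loop of ERK, JNK and p38 kinases. The nuclear members are classical immediate early genes, transcribed within minutes of a stimulus, and in macrophages they limit the duration of the kinase signals that drive inflammatory gene expression. The cytoplasmic members act mainly on ERK, a further subgroup acts mainly on JNK and p38, and atypical members such as DUSP22 lack the domain that docks MAP kinases.

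Each called transcript had a position, a strand and a score with 1 decimal, and no read counts, so sequencing depth was unknown. The control library held 43122 transcripts with a median length of 227 bp, and the IL-4 library 51365 with a median length of 312 bp. The value of a gene was the highest score among the transcripts named for it, and its median over genes was 0.5 in control and 0.3 after IL-4. Because of that general shift (a median log2 ratio of -0.38), ratios of IL-4 over control are given centred on the median gene, with the range that rounding of the scores allows in square brackets, which is no replicate error. The score had a floor that depended on length. In both libraries the lowest score was 0.5 for transcripts of 36 to 50 bp and 0.1 for those of 151 to 200 bp. From 401 to 5000 bp it was 0.1 in control but 0 after IL-4, where 13 transcripts had a score of 0. Control had 4816 transcripts of 401 to 800 bp against 13059 after IL-4, and 436 against 2191 of 801 to 5000 bp. A gene without a transcript was therefore below what the caller could detect, which does not make it silent. All 10 macrophage markers on the list used (Csf1r at 5.6 and 4.6, for example) had a transcript inside the gene on its own strand in both libraries, with summed scores of 20.3 and 17.5. None of the T cell, B cell, fibroblast or erythroid markers had one. Among 5 neutrophil and progenitor markers, 2 had one in each library (summed 1.1 and 0.5), with Mpo at 0.6 in control only, S100a8 at 0.5 in control and 0.3 with IL-4, and S100a9 at 0.2 after IL-4 only, and the part of such cells in the results was not tested. In a bulk library, fewer cells of a type and less RNA per cell cannot be told apart.

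Over the group as a whole, the highest score by name was lower after IL-4 for 5 genes and higher for 3 of the 8 with a value, relative to the median gene. The median centred log2 ratio was -0.20, and the ranges of 4 genes held 0. Only Dusp6 was at least 2-fold lower, against 8.62% of all 8879 genes with a value in both libraries, and none was at least 2-fold higher, against 8.06% of those genes. No member was beyond 2-fold over its whole rounding range. A count of 1 in 8 is close to that background, and nothing particular to the group is read from it.

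**Figure D1:**
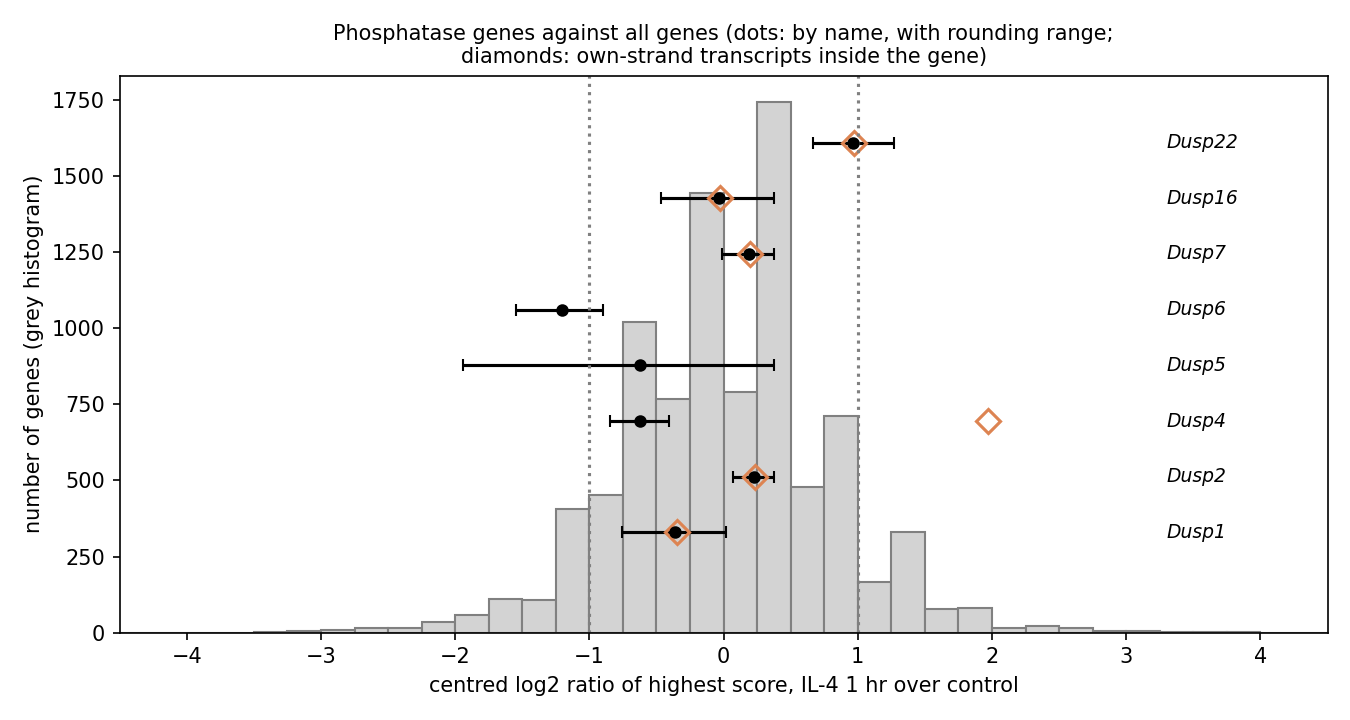
Centred log2 ratio of the highest score (x axis, IL-4 1 hr over control) for the 8 phosphatase genes with a value, drawn over the histogram of all 8879 genes (y axis, number of genes); dots are values by name with rounding ranges, diamonds are values from transcripts inside the gene on its own strand, and dotted lines mark 2-fold. By name only Dusp6, at -1.21, lies past a dotted line, while the own-strand value of Dusp4 lies at 1.97, far from its value by name of -0.62.

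The name of a transcript is that of the gene with the nearest promoter, whatever its strand, so the position of every transcript was read against the gene. In control 8 of the 19 transcripts named for the group lay inside the gene on its own strand (42.1%, against 67.5% over all genes), and after IL-4 15 of 26 did (57.7%, against 67.8%). Read this way, 6 of the 10 genes had a value in both libraries, with a median centred log2 ratio of 0.21. Dusp4 was at least 2-fold higher, against 8.01% of 7463 genes read the same way, and no member was at least 2-fold lower, against 8.27%. Dusp5 and Dusp6 had an own-strand transcript only after IL-4, as did 13.5% of the 9562 genes with an own-strand transcript in either library. No member had such a transcript only in control, against 8.46% of those genes.

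**Figure D2:**
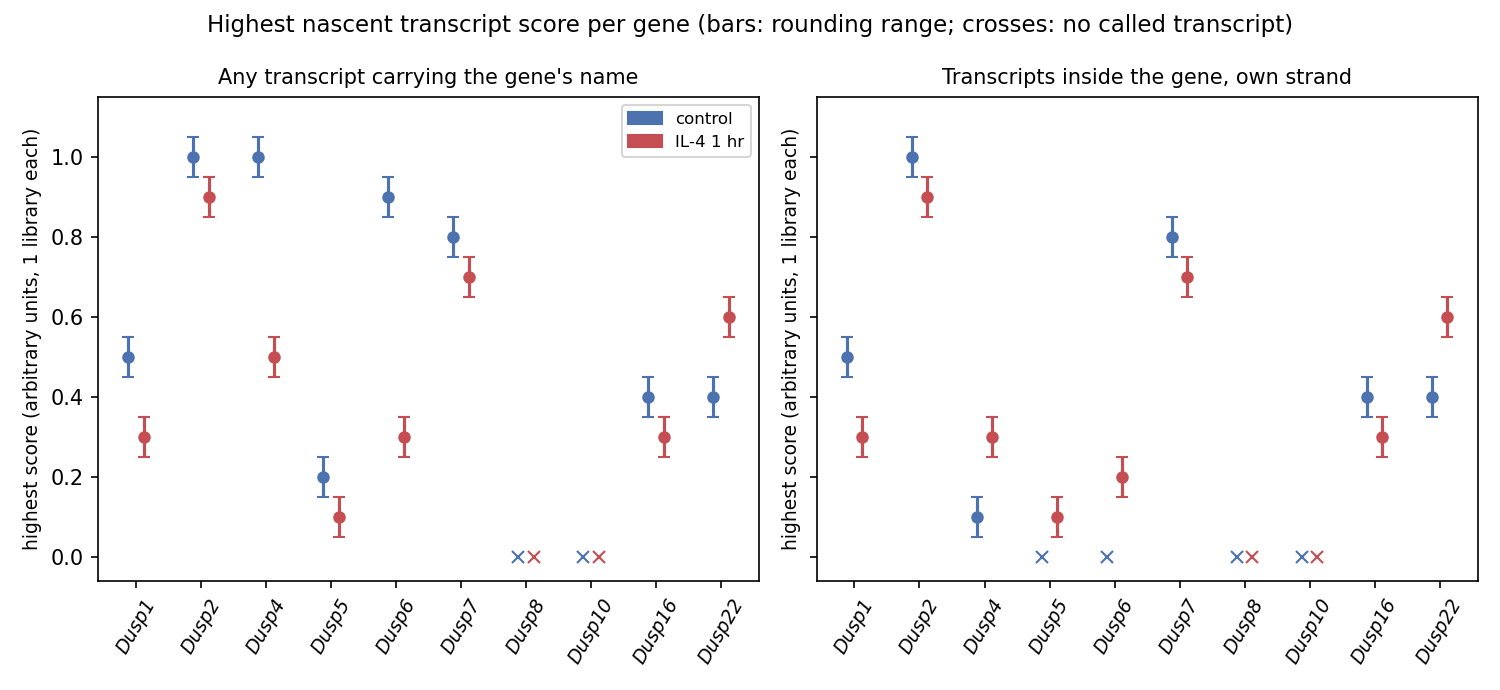
Highest score (y axis, arbitrary units, 1 library per condition) of each phosphatase gene in control and after 1 hr of IL-4, from all transcripts carrying the gene's name (left) and from those inside the gene on its own strand (right); bars are rounding ranges, and crosses stand for no called transcript. On the left 7 of the 8 uncentred scores are lower after IL-4, all but that of Dusp22, while on the right Dusp4 and Dusp22 are higher and Dusp5 and Dusp6 are present only after IL-4.

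Dusp1 encodes the founding nuclear MAP kinase phosphatase, which acts on p38 and JNK in macrophages (ENSMUSG00000024190.7, mm10, chr17:26505591-26508472, minus strand). Its start site carried a 190 bp transcript with a score of 0.5 in control and a 264 bp transcript with a score of 0.3 after IL-4, and the centred log2 ratio was -0.36 [-0.76, 0.02]. They began at -22 and -55 bp from the start site, so the start region had a called transcript in both conditions. Control also had a 175 bp transcript with a score of 0.2 at the transcription end site, 2944 to 3118 bp downstream of the start, and a 234 bp transcript with a score of 0.1 on the opposite strand, from -429 to -196 bp. Neither was called after IL-4, and with all scores of the gene summed its ratio was -1.13. The 2 transcripts that were missing after IL-4 had low scores, between 0.1 and 0.2.

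The sequences upstream of 3 members are shown as examples. Dusp1, Dusp5 and Dusp6 each had an upstream transcript on the opposite strand only in control. That of Dusp6, from -2516 to -2426 bp, lay outside the sequence shown. Dusp5 and Dusp6 also had an own-strand transcript only after IL-4, starting 51 bp and 12 bp downstream of the start site. Dusp7 and Dusp22 also had transcripts near the start site only after IL-4, and are not shown. The sequences are the 250 bases before the start site, taken from RefSeq (GRCm38.p6, the same build as mm10), at chr17:26508473-26508722 on the minus strand for Dusp1, chr19:53528895-53529144 on the plus strand for Dusp5 and chr10:99262981-99263230 on the plus strand for Dusp6. Capitals mark matches on either strand to the CRE core TGACG, bound by CREB family factors, and to the CArG box, bound by serum response factor.
Dusp1: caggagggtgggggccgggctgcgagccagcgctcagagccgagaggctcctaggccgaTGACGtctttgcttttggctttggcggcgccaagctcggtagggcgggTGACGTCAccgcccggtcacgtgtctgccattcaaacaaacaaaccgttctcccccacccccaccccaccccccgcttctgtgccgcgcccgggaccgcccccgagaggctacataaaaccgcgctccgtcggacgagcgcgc
Dusp5: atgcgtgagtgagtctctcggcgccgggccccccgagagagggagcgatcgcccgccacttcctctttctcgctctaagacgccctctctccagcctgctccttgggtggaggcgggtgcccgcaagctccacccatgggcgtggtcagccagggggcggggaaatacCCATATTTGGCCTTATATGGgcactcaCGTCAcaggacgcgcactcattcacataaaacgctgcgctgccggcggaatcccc
Dusp6: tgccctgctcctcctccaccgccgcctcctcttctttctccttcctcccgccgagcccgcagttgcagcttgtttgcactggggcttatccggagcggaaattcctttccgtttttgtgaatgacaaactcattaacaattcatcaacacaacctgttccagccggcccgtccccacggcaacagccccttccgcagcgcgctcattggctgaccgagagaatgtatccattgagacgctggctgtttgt

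Motifs were searched in the whole RefSeq window of 300 bases per gene, 250 before to 50 after the start, which 9 of the 10 members had. The CRE core was in 5 of the 9 windows (Dusp1, Dusp2, Dusp5, Dusp8 and Dusp16) and in 20.8% of all 32851 windows. In Dusp1 it matched 3 times, at -191 to -187 and as 2 overlapping matches on opposite strands between -143 and -136. The CArG box was in 1 window, that of Dusp5, as 2 adjoining matches from -82 to -63, and in 1.63% of all windows. The GC box GGGCGG was in 8 of 9 windows, all but that of Dusp6, and in 35.7% of all windows. No member window held the STAT6 type motif TTCNNNNGAA (6.95% of all windows), the STAT type motif TTCNNNGAA (8.3%), the AP-1 motif TGANTCA (7.81%) or TATAAA (13.6%). These matches are letters in a window and were not measured as binding.

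Dusp2 encodes a nuclear phosphatase found mainly in blood cells (ENSMUSG00000027368.6, chr2:127336159-127338377, plus strand). It had the highest own-strand score of the group in each library (control 1.0, IL-4 0.9). The centred log2 ratio was 0.23 [0.07, 0.38], since the score went down by less than that of the median gene. The transcript was in exon 1 in both libraries and became shorter, from 559 bp to 344 bp. Its score times length was 559 in control against 309.6 with IL-4, which gave a centred log2 ratio of -1.0. The ratio was -0.15 with the transcript nearest the start site and with own-strand transcripts in the first 1 kb, which do not count length. These settings read the same transcript and scores, but in them the median gene had a ratio of 0. The direction of Dusp2 relative to other genes thus depended on whether length was counted and on the centre used.

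Dusp4 encodes a nuclear phosphatase of ERK and JNK (ENSMUSG00000031530.6, chr8:34807610-34819894, plus strand). It had 5 named transcripts in each library, and its highest score was 1.0 in control and 0.5 after IL-4, with a centred log2 ratio of -0.62 [-0.84, -0.41]. In each library 4 of those 5 lay on the minus strand, and 3 of the 4 lay inside Tnks (ENSMUSG00000031529.5, chr8:34829179-34965690, minus strand), the neighbouring gene for the poly-ADP-ribosyltransferase tankyrase. The fourth lay past the 3′ end of Tnks, by 4312 bp in control and by 4333 bp with IL-4. The transcripts with scores of 1.0 and 0.5 were both on that strand, so the lower value by name was set outside Dusp4.

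The transcript of Dusp4 on its own strand went the other way. In control it was 255 bp long with a score of 0.1, from -207 to 47 bp around the start site. After IL-4 it was 834 bp long with a score of 0.3, from -180 to 653 bp, and was annotated to exon 1. The centred log2 ratio was 1.97 [1.12, 3.19], and the covered part of the gene was 48 bp and 654 bp. Dusp4 was the only member whose own-strand range lay wholly above 2-fold, from a control score that was the lowest deposited above 0. Tnks, read the same way, had 9 and 10 transcripts with highest scores of 2.5 and 1.5, a centred log2 ratio of -0.35 [-0.43, -0.27].

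**Figure D3:**
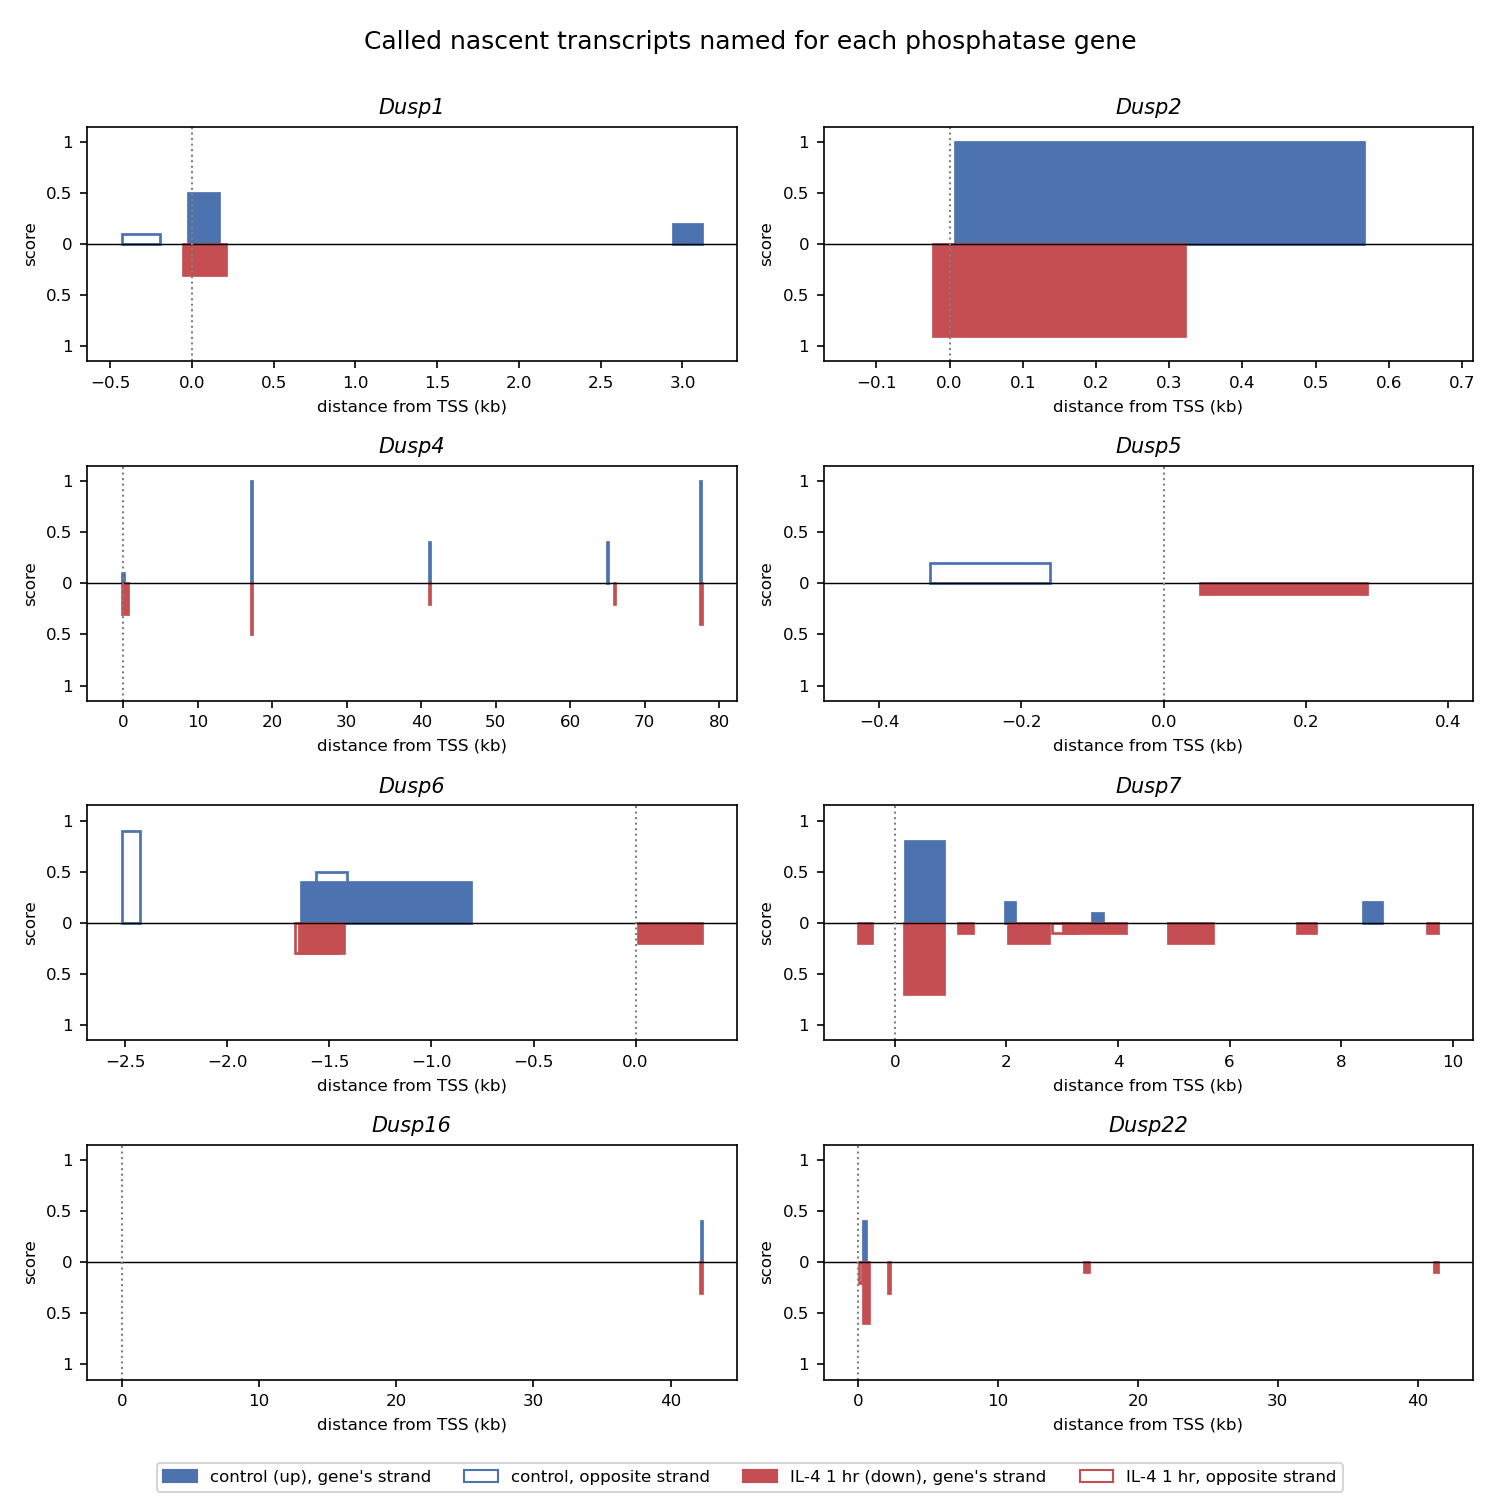
Called transcripts named for each phosphatase gene by distance from its transcription start site (TSS; x axis in kb, downstream to the right), with the score as height (y axis), control upward and IL-4 1 hr downward; filled boxes are on the gene's strand and open boxes on the opposite strand. The 4 distant Dusp4 transcripts, on the opposite strand and too narrow here to show as open, lie 17147 bp or more downstream, and Dusp5 and Dusp6 have filled boxes just right of the TSS only below the line.

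Dusp5 encodes an ERK-selective nuclear phosphatase (ENSMUSG00000034765.6, chr19:53529145-53541809, plus strand). By name its score was 0.2 in control and 0.1 after IL-4, with a centred log2 ratio of -0.62 [-1.94, 0.38]. The values came from different strands. The control transcript was 168 bp long and lay on the minus strand, from -328 to -161 bp relative to the start site. The IL-4 transcript was 235 bp long and lay on the gene's strand, 51 to 285 bp downstream. No transcript inside Dusp5 was called in control, and the single one after IL-4 had a score at the lowest step of 0.1.

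Dusp6 encodes the cytoplasmic phosphatase of ERK that is itself a target of ERK signalling (ENSMUSG00000019960.8, chr10:99263231-99267489, plus strand). By name its highest score was 0.9 in control and 0.3 after IL-4, with a centred log2 ratio of -1.21 [-1.55, -0.90]. All 3 control transcripts lay upstream of the gene, between -2516 and -805 bp relative to the start site. The one with a score of 0.9 was 91 bp long, on the minus strand, from -2516 to -2426 bp, and had no counterpart after IL-4.

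The other upstream transcripts of Dusp6 overlapped each other on opposite strands in a CpG island in both libraries. On the plus strand the transcript was 834 bp long with a score of 0.4 in control, and 220 bp long with a score of 0.3 after IL-4. On the minus strand it was 149 bp long with 0.5 in control, and 208 bp long with 0.3 after IL-4. Only after IL-4 was there a transcript in the gene itself, 313 bp long with a score of 0.2, starting 12 bp after the start site in exon 1. The 2-fold lower value by name thus described the upstream region alone, where the plus-strand score differed little more than the general shift, and not the gene's own transcript.

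Dusp7, the close relative of Dusp6 that also acts on ERK, had the most own-strand transcripts of the group in each library (ENSMUSG00000053716.9, chr9:106368560-106375724, plus strand). Its highest score was 0.8 in control and 0.7 after IL-4, both in exon 1, with a centred log2 ratio of 0.19 [-0.01, 0.38]. The exon 1 transcript was similar in extent, 706 bp in control against 714 bp with IL-4. The number of named transcripts was 4 in control against 9 with IL-4.

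The transcripts of Dusp7 after IL-4 covered more of the body of the gene. Own-strand transcripts covered 1071 bp (14.9% of the gene) in control, against 3648 bp (50.9%) with IL-4. After IL-4 they included an 804 bp transcript with a score of 0.2 in exon 3, where control had none. In intron 2 the own-strand transcript was 189 bp long in control against 1122 bp with IL-4, both with a score of 0.1. All transcripts past exon 1 had scores of 0.1 or 0.2 in both libraries.

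**Figure D4:**
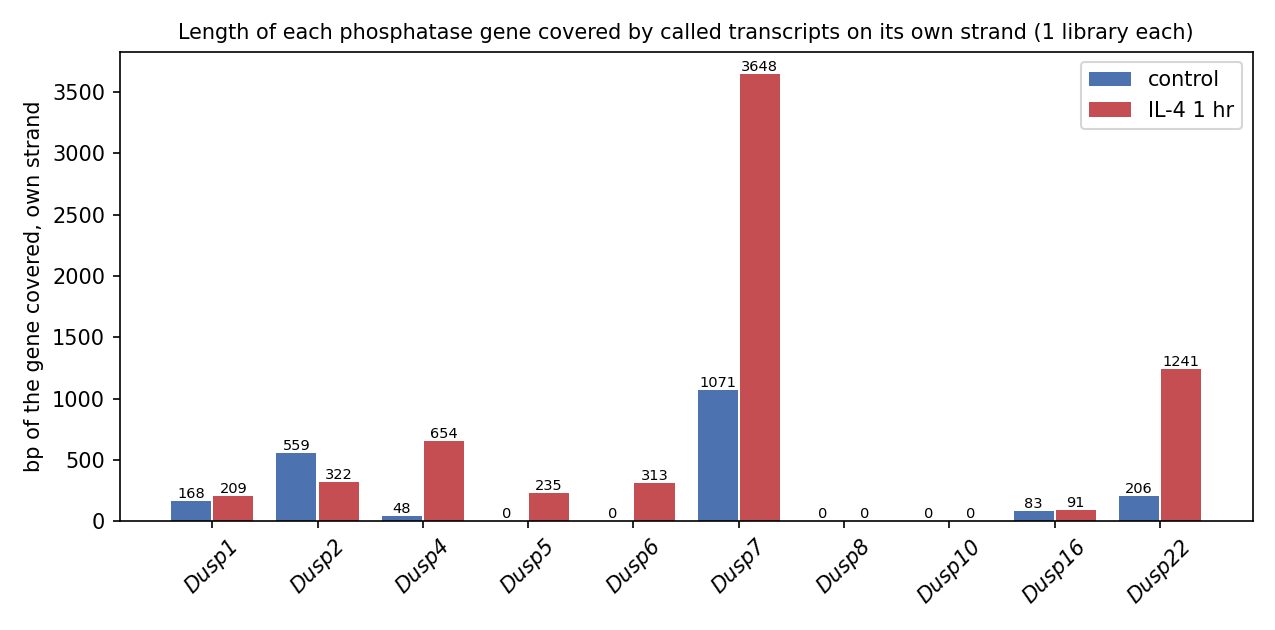
Length of each phosphatase gene covered by called transcripts on its own strand (y axis, bp) in control and after 1 hr of IL-4, 1 library each. The covered length of Dusp4, Dusp7 and Dusp22 is at least 2-fold larger after IL-4, that of Dusp2 is smaller (559 and 322 bp), and Dusp8 and Dusp10 have none.

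Of the members directed mainly at JNK and p38, Dusp8 (ENSMUSG00000037887.11, chr7:142079487-142095907, minus strand) and Dusp10 (ENSMUSG00000039384.8, chr1:184034381-184075636, plus strand) had no transcript by name or on their own strand in either library. Dusp16 (ENSMUSG00000030203.17, chr6:134715468-134807063, minus strand), which encodes a JNK phosphatase, scored 0.4 in control and 0.3 with IL-4, for a centred log2 ratio of -0.04 [-0.47, 0.38]. Its only transcript was an 83 bp segment in control and a 91 bp segment after IL-4 in a simple repeat of intron 3, starting 42192 bp and 42174 bp downstream of the start site. With transcripts in repeats left out Dusp16 had no value, and no transcript named for this subgroup lay at a start site in either library. Near Dusp10, 1 transcript per library carried the name of a neighbouring gene and was annotated to the Dusp10 promoter, both with a score of 0.1.

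Dusp22, the atypical member, encodes a phosphatase of the JNK pathway (ENSMUSG00000069255.13, chr13:30660059-30711232, plus strand). It had a score of 0.4 in control and 0.6 after IL-4, with a centred log2 ratio of 0.96 [0.67, 1.27], just inside 2-fold. Its percentile among the genes of the library was 43.1 in control and 74.6 after IL-4, the largest difference upward in the group. The transcript began 339 bp downstream of the start site in both libraries and was 206 bp long in control and 435 bp after IL-4.

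After IL-4 Dusp22 had 4 more transcripts, 3 of them on its own strand. These 3 lay in introns, at 2117, 16173 and 41166 bp from the start site, with scores of 0.3, 0.1 and 0.1. The one with 0.3 lay in low-complexity sequence and the farthest in a simple repeat. The transcript on the opposite strand had a score of 0.2 and lay 77 to 237 bp downstream of the start, in a CpG island. The length of the gene covered on its own strand was 206 bp in control against 1241 bp with IL-4. With all scores summed the centred log2 ratio was 1.99, and with only the own-strand transcripts in the first 1 kb, for which the median gene had a ratio of 0, it was 0.58. With the transcript nearest the start site it turned to -1.0, since that was the one on the opposite strand after IL-4.

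The covered length was at least 2-fold larger after IL-4 for Dusp4 (13.6-fold), Dusp7 (3.41-fold) and Dusp22 (6.02-fold) among the 6 members with an own-strand transcript in both libraries, against 29.9% of all such genes. For Dusp4 the fold counts only the part inside the gene, 48 of 255 bp in control and 654 of 834 bp after IL-4. The median gene was covered over 1.39 times the length, in a library whose transcripts were also longer in general. Own-strand transcripts wholly past the first 1 kb of a gene made up 3 of 8 in control, or 37.5%, against 80.8% over all genes. With IL-4 they made up 8 of 15, or 53.3%, against 81.4%. They lay in Dusp7, Dusp16 and, after IL-4, Dusp22. These shares pool all transcripts without regard to gene length, and the members span 2219 bp (Dusp2) to 91596 bp (Dusp16). Own-strand transcripts that touched the first 1 kb were found for 5 of the 8 members with any own-strand transcript in control, against 67.1% of 9562 genes, and for 7 of the 8 with IL-4, against 76.6%. The members' transcripts had a median length of 190 bp in control against 268 bp with IL-4, and median scores of 0.4 and 0.2. Of the 19 control transcripts, 13 had a counterpart overlapping on the same strand after IL-4 (68.4%, against 62.6% of all), and of the 26 after IL-4, 13 had one in control (50%, against 51.9% of all).

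The genes around the phosphatases in MAPK signalling were read from lists, by name and on their own strand. Of 13 MAP kinases, 7 had a ratio by name, and 1 was at least 2-fold lower and none higher (median -0.21), with none past 2-fold among 5 on the own strand (median -0.03). That gene was Mapk8, which encodes JNK1, at 1.8 and 0.6 by name, a centred log2 ratio of -1.21, but 0.4 and 0.3 on its own strand (-0.03). Of 7 MAP kinase kinases, 6 had a ratio, with none past 2-fold and a median of 0.38 by name and -0.17 on the own strand. Of 12 MAP kinase kinase kinases, 11 had a ratio, 1 lower and 2 higher (median 0.11), and on the own strand 1 was lower and 1 higher of 12 (median 0.09), among them Map3k11, a kinase upstream of JNK, at 0.3 and 0.6 (1.38).

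Of 10 MAPK-activated kinases, 8 had a ratio, 2 lower and 1 higher by name and on the own strand, with medians of -0.12 and -0.47. Rps6ka2 (0.6) and Rps6ka5 (0.3), both kinases of the same class, were called only in control. So were the MAP kinases Mapk3 (0.3) and Mapk9 (0.1). All had these scores on their own strand, where 8.46% of 9562 genes had a transcript only in control. No gene of either list was called only after IL-4, against 13.5% on the own strand. Rps6ka1, an ERK-activated ribosomal S6 kinase, was at 1.9 in control and 0.4 after IL-4 (-1.87 [-2.10, -1.66]), and Mapkapk3, a kinase activated by p38, at 2.2 and 4.4 (1.38 [1.33, 1.43]). Both kept these scores on their own strand. Of 16 other dual specificity phosphatases, 7 had a ratio, 2 lower and 1 higher (median -0.62), none over its whole rounding range, and on the own strand none of 4 was past 2-fold (median -0.50). Of 11 other inhibitors of the Ras-ERK route, 9 had a ratio, with none past 2-fold by name (median -0.21) or among 8 on the own strand (median -0.27).

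Of 17 immediate early genes, 11 had a ratio by name and 10 on the own strand. In each reading none was lower and 2 were higher, but not the same 2 genes. The median was 0.38 by name and 0.29 on the own strand. Ier3, an immediate early gene of stress responses, was at 0.8 in control and 3.1 after IL-4 (2.33 [2.22, 2.45]), on its own strand too. Fosb, a subunit of AP-1, was at 0.6 and 1.4 by name (1.60). On its own strand Fosb had 0.2 in control and no transcript after IL-4. The other gene higher on the own strand was Fosl2, at 0.2 and 0.8 (2.39), but at 0.7 and 0.8 by name (0.57). Of the nuclear phosphatases, which belong to the same transcriptional class, Dusp1 and Dusp2 had ratios by name of -0.36 and 0.23. Dusp4 had -0.62 by name and 1.97 on its own strand. Dusp5 had -0.62 [-1.94, 0.38] by name, from different strands, and an own-strand transcript only after IL-4. In each list the genes past 2-fold were to be read against 8.62% lower and 8.06% higher over all genes, and with 1 library per condition none of these differences could be set against a replicate spread.

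**Figure D5:**
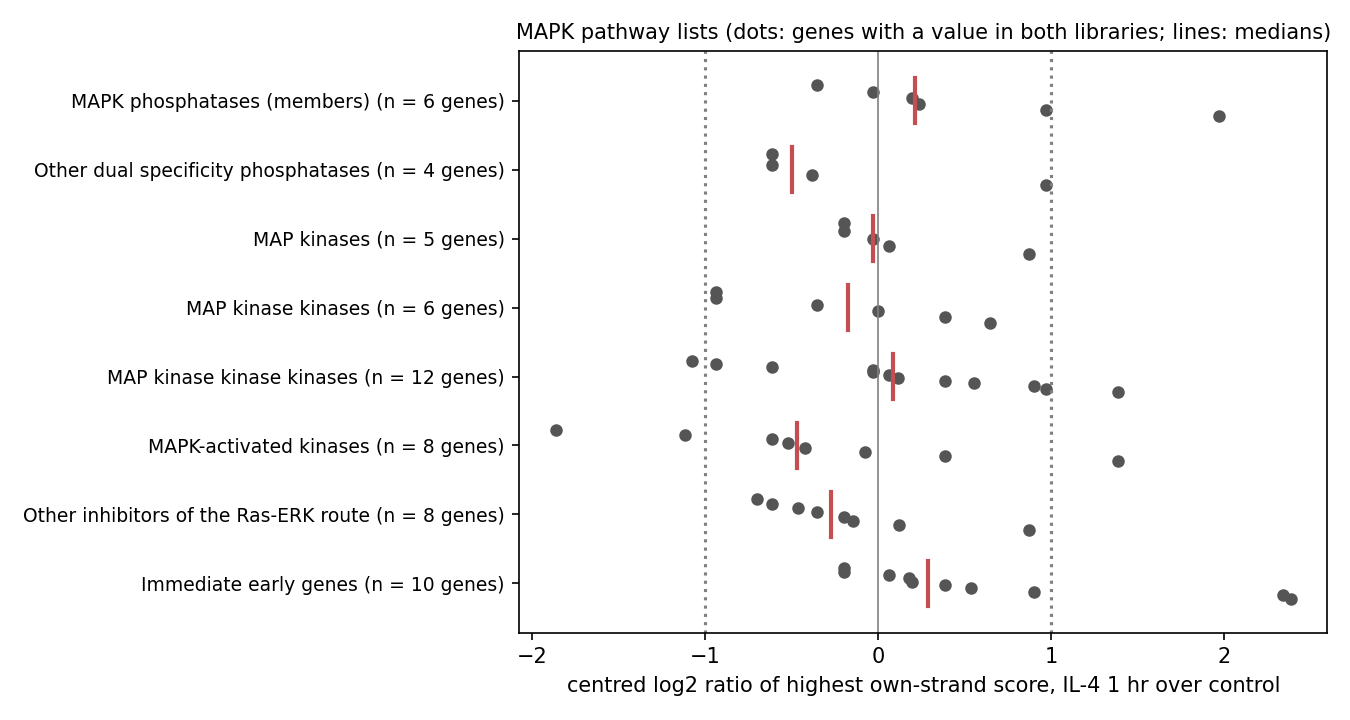
Centred log2 ratio of the highest own-strand score (x axis, IL-4 1 hr over control) for the genes of each MAPK pathway list that had a value in both libraries (dots), with the list's median (red line) and dotted lines at 2-fold. The 6 phosphatases have a median of 0.21, and Ier3 and Fosl2 are the immediate early genes past the right dotted line.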

How the data were processed

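Called transcripts of 2 GRO-seq libraries (1 control, 1 IL-4 1 hr) were analysed, grouped by their treatment labels. The submitters' processing notes name BWA 0.7.10, SAMtools 0.1.19 and HOMER 4.2. Per the study's methods, reads were mapped to mm10, ENCODE artifact regions were removed, and HOMER called and annotated transcripts in each library. The authors deposited a peak score per transcript with 1 decimal, whose scaling to library size is not given in the sources used here. Depth was unknown, no count test was possible, and no p-value was computed.

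A gene's value was its highest score by name. Log2 ratios were centred on the median of 8879 genes, and at least 2-fold was counted as lower or higher. Spans came from RefSeq (GRCm38.p6), strands and Ensembl identifiers from GENCODE M21, and start sites from the RefSeq promoter table where it gave a single window. An own-strand transcript overlapped the span by at least 1 bp. The rule on the symbol used no measured value, but the members and lists were chosen with earlier results of these data known. All 10 members were named, and from each list up to 3 genes in each direction that were past 2-fold over their whole rounding range. Fosl2 was named in text and caption, Csf1r, Mpo, S100a8 and S100a9 as markers, and Tnks for its overlap, after their values were seen. Mapk3, Mapk9, Rps6ka2 and Rps6ka5 were named as genes without a ratio, also after their values were seen. The calculations used Python 3.11.15 and pandas 2.3.3 and were tested on simulated data. The simulated scores were larger than the deposited ones, so the effect of rounding at low scores was not tested. There were 8 alternatives for the gene value and its filters, with others for the transcripts themselves, and 2 added after seeing the data.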

Additional observations from a re-analysis of the deposited data

Results flagged for a closer look

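Transcripts close to members but named for other genes were outside the comparisons above, and 2 of them were called after IL-4 with no overlapping control transcript on the same strand. The first, named for 1700056E22Rik and scored 0.1, lay at chr1:184033597-184033858 on the minus strand, 523 bp upstream of Dusp10. Control had a plus-strand transcript with the same score of 0.1 at chr1:184033747-184033981, 400 bp upstream of Dusp10, which had no counterpart after IL-4. The span of 1700056E22Rik, a minus-strand gene, holds both positions. The other, named for Irf4, was scored 0.1 and lay at chr13:30714187-30714645 on the minus strand, 2955 bp past the end of Dusp22. Both scores were at the lowest step above 0, and the differences could not be tested.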

How the results depend on the processing

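No paired analysis was possible because each condition was a single library. The number of members at least 2-fold lower, 1 by the highest score by name, was 3 with score times length, with the transcript nearest the TSS and without centring, and 0 with own-strand transcripts, with those in the first 1 kb and with own-strand score times length. The number at least 2-fold higher, 0 by name, was 1 with summed scores, score times length, the transcript nearest the TSS, own-strand transcripts and those in the first 1 kb, and 2 with own-strand score times length. The settings on the first 1 kb and on own-strand score times length were added after seeing the data. Without centring, 2161 of 8879 genes were lower and 531 higher, against 765 and 716. With the transcript nearest the TSS these were 2460 and 974 of 8878 genes, with score times length 1500 and 1529, with summed scores 1219 and 1208, in the first 1 kb 1026 and 449 of 5673, and with own-strand score times length 1256 and 1248 of 7463. The median of the members ran from -0.58 to 0.21 over all settings, and changed sign for both own-strand measures over the whole gene. Transcripts of the members numbered 8 and 15 on the own strand and 12 and 11 with a score of at least 0.3, against 19 and 26. The share of IL-4 transcripts with a control counterpart, 50%, was 26.9% with at least 50% overlap and 90.9% with a score of at least 0.3, against 35.8% and 80.3% over all transcripts. Over 71 values of single members under alternatives, 57 kept their sign. A setting in which a member had no ratio was not counted. Among others this left out the own-strand settings for Dusp5 and Dusp6, whose own-strand transcripts were called only after IL-4. Dusp4 ran from -1.0 to 3.16, Dusp22 from -1.0 to 2.14, Dusp2 from -1.0 to 0.24 and Dusp7 from -0.19 to 0.76. The cause of these shifts was not tested. The low scores of most members, known to 1 decimal, limit every ratio.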

Other observations

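Several immediate early genes had a value in only 1 library and so no ratio. Egr1 (0.1), Egr2 (0.4) and Myc (0.4) had an own-strand transcript only after IL-4. Of the 9562 genes with an own-strand transcript in either library, 13.5% had one only after IL-4 and 8.46% only in control. Nr4a1 had an own-strand transcript only in control (0.4), as did Fosb (0.2), which had a ratio by name. No transcript of Fosl1 or Egr3 was called in either library. These genes were named here after their values were seen.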
